A study of Mus musculus with 8 samples.

Results

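The interaction of siKlf4 and TGFβ was examined in NMuMG cells, an epithelial line from the normal mouse mammary gland that is untransformed and undergoes epithelial-mesenchymal transition (EMT) when TGFβ is added. RNA was hybridised to 8 Affymetrix whole-transcript arrays in 4 groups of 2. The group siControl received a control siRNA and no TGFβ, and the group siKlf4 received a pool of siRNAs against Klf4 and no TGFβ. The groups siControl+TGFβ and siKlf4+TGFβ received the same siRNAs and, in addition, TGFβ at 2 ng/ml for 2 days. All 4 groups are transfected cells of 1 line, the subclone NMuMG/E9, and no source used here states that both arrays of a group are independent transfections. If they are not, the spread behind the p-values is technical.

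The interaction of a gene is the log2 difference between siKlf4+TGFβ and siControl+TGFβ minus the log2 difference between siKlf4 and siControl. It is 0 where the 2 single differences from siControl add up to the difference of the combination from siControl. A positive value means that the gene was higher in siKlf4+TGFβ than this sum, and a negative value that it was lower. Values are log2 intensities, and the medians of the arrays lay between 4.90 and 5.0. Genes entered through probe sets with exactly 1 gene symbol, and the brightest probe set on average stood for its gene, which gave 19937 genes from 34760 probe sets. None of these genes was left out of the test for its response. The gene lists set against all genes below were chosen with earlier results of these data known. The interaction was tested with limma and adjusted over all 19937 genes after Benjamini and Hochberg, and a gene was called at an adjusted p under 0.05. The median standard error of an interaction was 0.14 on the log2 scale, against 0.10 for a difference of 2 groups.

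Klf4 is a zinc-finger transcription factor of the Krüppel-like family that is found in differentiating epithelia, among them the epidermis, where mice without it fail to build a skin barrier. TGFβ binds a receptor kinase that activates Smad proteins, and in mammary epithelial cells it slows the cell cycle and starts EMT. In EMT, cells loosen their junctions, lay down matrix such as fibronectin and begin to migrate. Where a transcription factor and a signal act on the same genes, their joint effect need not be the sum of the separate effects, and the arrangement of 4 groups measures this.

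Klf4 itself had log2 values of 8.60 and 8.43 in siControl, 8.03 and 7.91 in siKlf4, 7.46 and 7.46 in siControl+TGFβ and 7.43 and 7.24 in siKlf4+TGFβ. It was thus lower in both arrays labelled siControl+TGFβ than in both labelled siKlf4. Fn1, the fibronectin gene and a familiar target of TGFβ, had log2 values of 9.61 and 9.70 in siControl, 12.37 and 12.35 in siKlf4, 9.84 and 9.73 in siControl+TGFβ and 12.70 and 12.73 in siKlf4+TGFβ. Fn1 was high in the arrays labelled siKlf4 and near the level of siControl in those labelled siControl+TGFβ. Among 30 measured genes known to be induced by TGFβ, the median log2 difference from siControl was 0.97 in siKlf4 and 0.02 in siControl+TGFβ. These values go against the labels of the single treatments, so the groups are called by their labels throughout, and each statement on a single treatment holds for the arrays as labelled. Exchanging the labels siKlf4 and siControl+TGFβ leaves the interaction of every gene as it is, since both enter it with the same sign, and it also leaves the comparison of siKlf4+TGFβ with siControl as it is. The interaction of Klf4 was 0.42 (standard error 0.14, adjusted p = 0.245), which did not pass the test.

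The cells carried the keratins of a simple epithelium at high log2 levels, with means of 13.24 for Krt8 and 12.52 for Krt18, and E-cadherin (Cdh1) at 10.50. Of 8 epithelial markers, 3 (Epcam, Cldn7 and Esrp1) lay below the array medians, with mean log2 values from 3.90 to 4.40. The defining leukocyte markers Ptprc and Adgre1, at means of 3.74 and 3.64, and all 6 endothelial markers but Cldn5 also lay below them. Of the 7 leukocyte markers measured, 4 lay above the array medians, with means of 7.03 for Cd14, 6.72 for Cd68, 6.07 for Csf1r and 5.04 for Cd3e. The means of the 7 markers were 5.21, 5.30, 4.98 and 5.20 in siControl, siKlf4, siControl+TGFβ and siKlf4+TGFβ. An interaction was called for 1 leukocyte marker, the growth factor receptor gene Csf1r (0.62, adjusted p = 0.0307), and for 1 epithelial marker, Elf3. Above the array medians lay 3 of 7 fibroblast markers, with means of 6.87 for Col1a1, 5.92 for Col3a1 and 5.34 for Thy1. So did 2 of 5 adipocyte markers, Cidec at 5.23 and Plin1 at 5.12. No endothelial, adipocyte or fibroblast marker was called.

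In most genes the combination lay near the sum of the single differences, and a small set departed from it in either direction. Of the 19937 genes, 304 were called, which is 1.52%. Higher than additive were 109 genes, or 0.547%, and lower than additive were 195 genes, or 0.978%. At an unadjusted p under 0.05 there were 994 higher and 1409 lower. The smallest called interaction had a size of 0.55, and 37 of the genes above and 47 of those below the sum departed from it by at least 2-fold. For 14642 genes (73.4%), the 95% interval of the interaction lay wholly within 1.5-fold in either direction. By comparison, 30% of all genes, or 5982, were called between siKlf4+TGFβ and siControl, and 270 of these also had a called interaction. This was 14.7% higher and 15.3% lower in the combination. Between siKlf4 and siControl 19.7% were called, with 9.98% higher and 9.71% lower in siKlf4, and between siControl+TGFβ and siControl 12.5% were called, with 5.81% higher and 6.65% lower. The median interaction over all genes was −0.025, and the 5th and 95th percentiles were −0.39 and 0.33.

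**Figure D1:**
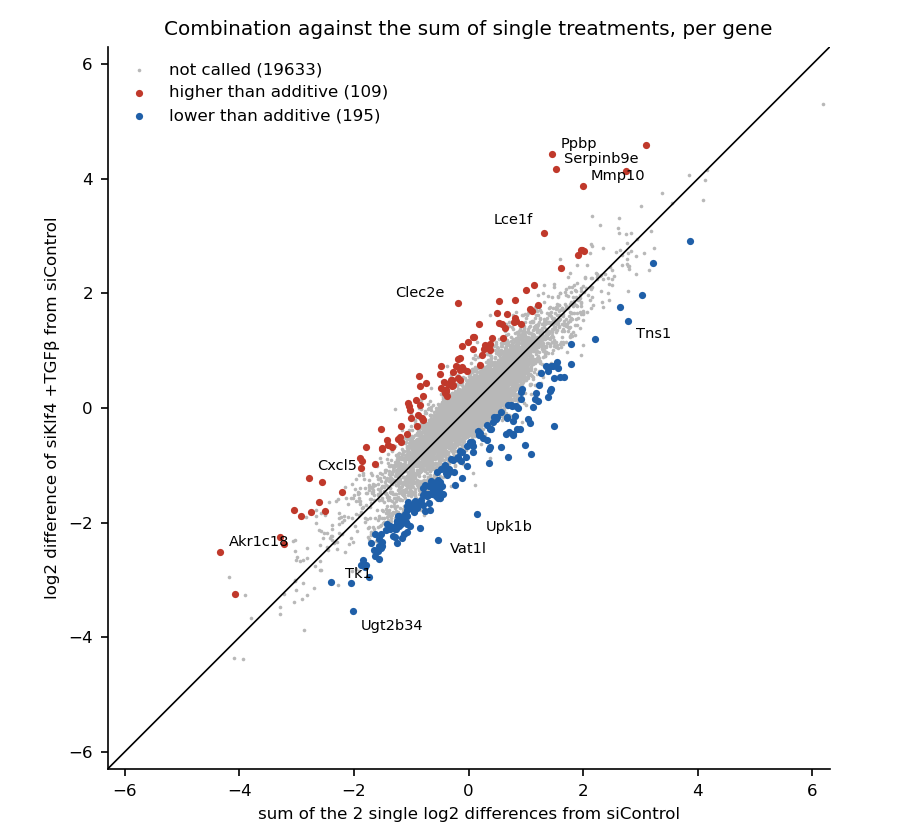
Each point is 1 of 19937 genes, with the sum of the log2 differences of siKlf4 and of siControl+TGFβ from siControl on the horizontal axis and the log2 difference of siKlf4+TGFβ from siControl on the vertical axis. The line marks equality, red points are the 109 genes called higher and blue points the 195 called lower than the sum, and most grey points lie along the line.

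The number of calls depended on single arrays. Leaving out 1 array at a time gave between 13 and 82 genes higher and between 15 and 151 lower. Without replicate 1 or 2 of siControl+TGFβ there were 17 and 14 higher and 29 and 17 lower, and without replicate 1 or 2 of siKlf4+TGFβ there were 24 and 13 higher and 26 and 15 lower. Without replicate 1 or 2 of siControl the counts were 63 and 54 higher and 151 and 65 lower, and without replicate 1 or 2 of siKlf4 they were 82 and 62 higher and 129 and 104 lower. The genes called in all 8 of these fits were Ppbp, Serpinb9e, Clec2e, Mmp10, Lce1f, Clca3b, Plod2, Slc7a11, Nfil3, Efna1 and Ggct on the higher side. On the lower side they included Upk1b, Slco1a5, Vat1l, Cd36, Upk3b, Elovl6, Ablim1, Lig1, Tk1, Fgf18 and Pclaf. Of these, Nfil3, Efna1, Ggct, Fgf18 and Pclaf fall outside the rule by which genes were named and were chosen after their values were seen. Conversely, 23 of the higher and 45 of the lower genes were called in none of them. An analysis of variance without the shared variance estimate of limma, applied here to the interaction, called 0 genes after adjustment. It gave 2400 at an unadjusted p under 0.05 and 107 at an adjusted p under 0.10. The study's methods name an analysis of variance for differentially expressed genes and do not mention the interaction, so these counts are not the study's own.

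The gene furthest above the sum was Ppbp, which encodes a chemokine that attracts neutrophils. Its log2 values were 6.14 and 5.49 in siControl, 7.37 and 6.96 in siKlf4, 5.85 and 6.0 in siControl+TGFβ and 10.21 and 10.30 in siKlf4+TGFβ. Both arrays of the combination lay above all 6 others, and the siControl+TGFβ arrays lay within the range of siControl. The interaction was 2.98 (standard error 0.29, adjusted p = 0.00522), a level 7.90-fold above the sum. Mmp10, a metalloproteinase that cleaves matrix proteins, followed the same order, with log2 values of 5.05 and 4.96 in siControl, 6.29 and 6.70 in siKlf4, 5.6 and 5.43 in siControl+TGFβ and 8.86 and 8.90 in siKlf4+TGFβ. No 2 groups overlapped. Its interaction was 1.88 (standard error 0.18, adjusted p = 0.00522).

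Clec2e, which encodes a C-type lectin of the cell surface, had log2 values of 3.6 and 3.78 in siControl, 4.08 and 3.66 in siKlf4, 3.39 and 3.25 in siControl+TGFβ and 5.59 and 5.44 in siKlf4+TGFβ. It rose above the array medians in the combination alone, while siKlf4 overlapped siControl. The interaction was 2.02 (standard error 0.20, adjusted p = 0.00522). Ptgs2, the inducible cyclooxygenase of prostaglandin synthesis, was already among the bright genes, with log2 values of 10.34 and 10.06 in siControl, 11.35 and 11.07 in siKlf4, 9.84 and 9.61 in siControl+TGFβ and 12.09 and 12.03 in siKlf4+TGFβ. All 4 groups stood apart, with siControl+TGFβ lowest and the combination highest. Its interaction was 1.33 (standard error 0.19, adjusted p = 0.0145), and this call was lost without replicate 2 of siControl+TGFβ or either array of siKlf4+TGFβ (adjusted p from 0.0715 to 0.0808). Plod2, a lysyl hydroxylase that prepares collagen for cross-linking, had log2 values of 8.96 and 8.85 in siControl, 9.81 and 9.79 in siKlf4, 8.25 and 8.12 in siControl+TGFβ and 10.41 and 10.34 in siKlf4+TGFβ. The single differences, of 0.90 and −0.72, were opposed and nearly cancelled, yet the combination was higher than siKlf4 in both arrays, and the interaction was 1.29 (standard error 0.12, adjusted p = 0.00517).

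Serpinb9e belongs to the clade B serpins, intracellular protease inhibitors, and had log2 values of 4.0 and 4.22 in siControl, 6.21 and 5.46 in siKlf4, 3.95 and 3.86 in siControl+TGFβ and 8.33 and 8.22 in siKlf4+TGFβ. The combination lay above siKlf4, and siKlf4 above the remaining arrays. Its interaction was 2.64 (standard error 0.28, adjusted p = 0.00611). It was the only member called among the 15 clade B serpins measured (6.67% higher, against 0.547% of all genes). The paralogs Serpinb9 and Serpinb9b differed from siControl by 1.5 and 1.76 in the combination and by 1.34 and 1.72 in siKlf4, and their interactions were −0.24 (adjusted p = 0.730) and −0.60 (adjusted p = 0.161). Serpinb9c and Serpinb9d had interactions of 0.37 (adjusted p = 0.601) and 0.50 (adjusted p = 0.184, 95% interval 0.16 to 0.83). Serpin genes of this cluster are alike in sequence, so that a probe set can pick up RNA of a paralog, and the values of single members are uncertain to that extent.

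**Figure D2:**
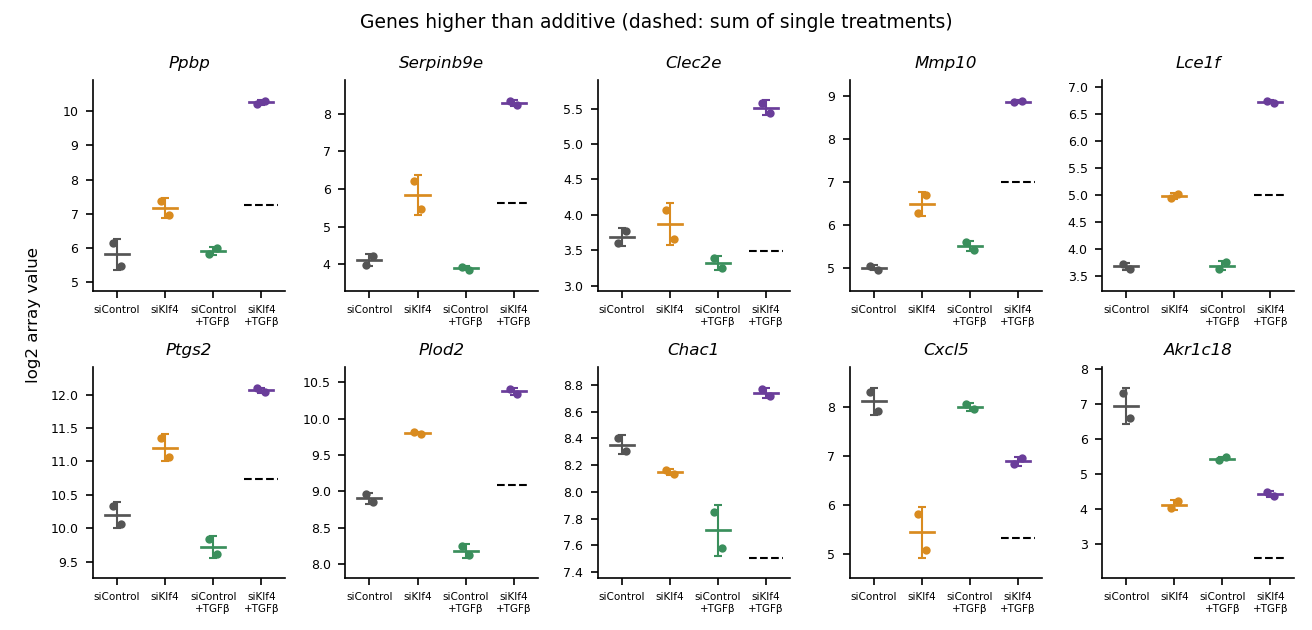
The log2 value of each array is plotted for 10 genes called higher than additive, with a bar for the mean and whiskers for the standard deviation of the 2 arrays of a group. The dashed line over siKlf4+TGFβ is the sum of the single differences added to siControl, and both arrays of the combination lie above it in all 10 genes.

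Genes of the epidermal barrier, which build the cornified envelope of keratinocytes, were a further group on the higher side. Of 37 measured members, 5 were called higher and 0 lower (13.5% against 0.547% of all genes), with a median interaction of 0.06. The called members were 3 late cornified envelope genes, Lce1f, Lce1g and Lce1i, and the small proline-rich genes Sprr1a and Sprr2h. Lce1f had log2 values of 3.72 and 3.63 in siControl, 4.94 and 5.02 in siKlf4, 3.62 and 3.75 in siControl+TGFβ and 6.75 and 6.71 in siKlf4+TGFβ. The arrays of siControl and siControl+TGFβ overlapped far below the others, and the interaction was 1.74 (standard error 0.12, adjusted p = 0.00152). Lce1g reached the widest span, with log2 values of 3.29 and 3.69 in siControl, 6.77 and 6.28 in siKlf4, 3.47 and 3.62 in siControl+TGFβ and 8.04 and 8.13 in siKlf4+TGFβ.

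The interaction of Lce1g was 1.5 (standard error 0.24, adjusted p = 0.0223), that of Lce1i was 1.39 (standard error 0.25, adjusted p = 0.0345), and that of Lce1j, which was not on the list, was 0.74 (standard error 0.13, adjusted p = 0.0296). None of these 3 calls held in all leave-out fits. Lce1g was lost without replicate 2 of siControl or any TGFβ-labelled array (adjusted p from 0.0594 to 0.105), Lce1i without either siControl or any TGFβ-labelled array (0.0723 to 0.146) and Lce1j without replicate 2 of siControl or of siKlf4 or any TGFβ-labelled array (0.0777 to 0.140). The other Lce1 genes measured, Lce1a1, Lce1a2, Lce1b, Lce1c, Lce1d, Lce1e, Lce1h, Lce1k and Lce1l, were not called, with interactions from −0.14 for Lce1a1 to 0.84 for Lce1h. Lce1h had values of 7.12 and 8.52 in the 2 arrays of siKlf4+TGFβ, and its standard error was 0.56.

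The Lce1 genes lie side by side and are near copies of each other, so probe sets may share transcripts. The similarity extends into the promoters of Lce1g and Lce1i, which are printed because both genes moved together. Each line gives the 200 bases before the start of the gene from RefSeq (build GRCm38.p6), at chr3:92752339-92752538 on the minus strand and at chr3:92778900-92779099 on the minus strand, and capitals mark the 29 positions at which the 2 sequences differ, so that 171 (85.5%) are equal.
Lce1g: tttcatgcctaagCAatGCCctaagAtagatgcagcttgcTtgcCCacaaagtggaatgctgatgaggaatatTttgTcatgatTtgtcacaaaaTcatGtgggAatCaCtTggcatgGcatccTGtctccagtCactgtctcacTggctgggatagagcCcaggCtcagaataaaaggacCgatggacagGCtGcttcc
Lce1i: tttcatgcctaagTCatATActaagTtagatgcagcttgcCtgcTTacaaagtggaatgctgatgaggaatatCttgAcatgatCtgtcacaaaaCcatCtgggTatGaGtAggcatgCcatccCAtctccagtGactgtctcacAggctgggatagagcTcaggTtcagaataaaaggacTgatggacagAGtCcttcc

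The proline-rich genes had another pattern than the Lce1 genes. Sprr2h had log2 values of 6.57 and 6.06 in siControl, 4.92 and 4.84 in siKlf4, 5.31 and 5.10 in siControl+TGFβ and 5.08 and 4.96 in siKlf4+TGFβ. The combination was no lower than siKlf4, and the interaction of 1.26 (standard error 0.21, adjusted p = 0.0282) thus arose with each single group below siControl. It was lost without either siKlf4 array or any TGFβ-labelled array (adjusted p from 0.0640 to 0.129). Sprr1a had an interaction of 0.80 with differences from siControl of −1.34 in siKlf4 and −0.17 in siControl+TGFβ. The envelope proteins loricrin (Lor) and involucrin (Ivl) had interactions of 0.15 and 0.00 and were not called. Leaving out any TGFβ-labelled array left 1 barrier gene called, and leaving out replicate 2 of siControl left 3.

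Chemokine and cytokine genes gave 3 calls among 35 measured, all higher (8.57% against 0.547% of all genes), with a median of −0.10. Beside Ppbp these were its neighbour in function Cxcl5, also a neutrophil attractant, and Il15, a cytokine that sustains lymphocytes. Cxcl5 moved differently from Ppbp, with log2 values of 8.30 and 7.91 in siControl, 5.81 and 5.08 in siKlf4, 8.05 and 7.94 in siControl+TGFβ and 6.82 and 6.95 in siKlf4+TGFβ. The combination lay between siKlf4 and the other groups, and the interaction was 1.56 (standard error 0.30, adjusted p = 0.0432), a call that held only without replicate 1 of siKlf4 (adjusted p from 0.0512 to 0.180 in the other 7 fits). Il15 had an interaction of 0.88 (adjusted p = 0.0307), which held only without replicate 1 of siKlf4 (0.0608 to 0.139 in the other 7). Ccl20 and Il33, which fell in the combination by 3.88 and 2.84, had interactions of −1.01 and −0.92 and were not called.

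Genes of the unfolded protein response and targets of Atf4 were another group above the sum. Atf4 is translated when the kinases of the integrated stress response are active, and it raises genes of amino acid uptake and of cell death. Of 27 measured members, 6 were called higher and 0 lower (22.2% against 0.547% of all genes), with a median interaction of 0.25. The called genes were Chac1, which degrades glutathione, the cystine transporter Slc7a11, the mTORC1 inhibitor Ddit4, the pseudokinase Trib3, the transcription factor Ddit3 (CHOP) and the lipoprotein receptor Vldlr. Chac1 had log2 values of 8.40 and 8.30 in siControl, 8.17 and 8.14 in siKlf4, 7.85 and 7.58 in siControl+TGFβ and 8.77 and 8.71 in siKlf4+TGFβ. Both single groups lay below siControl and the combination above it. The interaction was 1.23 (standard error 0.14, adjusted p = 0.00787), and it was lost without replicate 2 of siKlf4+TGFβ (adjusted p = 0.0525).

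Slc7a11 had log2 values of 7.27 and 7.35 in siControl, 6.14 and 6.29 in siKlf4, 7.39 and 7.30 in siControl+TGFβ and 7.42 and 7.39 in siKlf4+TGFβ. It was low in siKlf4 alone, and in the combination it lay just above siControl, with an interaction of 1.15 (standard error 0.12, adjusted p = 0.00611). Ddit4 had single differences of 0.91 and −0.91 that cancelled, and the combination was 1.15 above siControl, so its interaction was 1.15 too (standard error 0.15, adjusted p = 0.0128). Trib3 fell in siKlf4 and in siControl+TGFβ by 0.38 and 0.63 and differed from siControl by −0.03 in the combination, with an interaction of 0.99 (standard error 0.14, adjusted p = 0.0145). The call of Ddit4 was lost without either siControl+TGFβ array or replicate 2 of siKlf4+TGFβ (adjusted p from 0.0525 to 0.0666) and that of Trib3 without any TGFβ-labelled array (0.0685 to 0.0795). Ddit3 and Vldlr each had an interaction of 0.81.

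The chaperones of the endoplasmic reticulum on the same list did not share this. Hspa5 (BiP), Hsp90b1 and Pdia4 had interactions of 0.01, −0.05 and −0.02, and Atf4 itself 0.49. Among Atf4 targets of amino acid synthesis, Asns had 0.30, Psat1 −0.15 and Phgdh −0.08, and none of these was called. Leaving out replicate 1 or 2 of siControl+TGFβ left 2 genes of the list called each time, and leaving out replicate 1 or 2 of siKlf4+TGFβ left 3 and 1.

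The AP-1 family encodes factors that bind DNA as Jun and Fos dimers downstream of JNK and ERK. Of 23 measured genes of the JNK cascade and AP-1, 3 were called higher and 0 lower (13.0% against 0.547% of all genes), with a median of 0.18. Atf3 had log2 values of 8.71 and 8.67 in siControl, 8.02 and 7.79 in siKlf4, 7.89 and 8.02 in siControl+TGFβ and 8.21 and 8.44 in siKlf4+TGFβ. Each single group was lower than the combination, which in turn was lower than siControl, and the interaction was 1.16 (standard error 0.16, adjusted p = 0.0128). Jun had log2 values of 9.49 and 9.28 in siControl, 9.09 and 8.94 in siKlf4, 8.84 and 8.82 in siControl+TGFβ and 9.52 and 9.51 in siKlf4+TGFβ. It was lower in both single groups and just above siControl in the combination, with an interaction of 1.06 (standard error 0.13, adjusted p = 0.0111). Fosb, lowered by 0.67 and 1.11, differed from siControl by −0.68 in the combination (interaction 1.10, standard error 0.16, adjusted p = 0.0145). Without any 1 TGFβ-labelled array, Fosb (adjusted p from 0.0646 to 0.0808) and Jun (0.0595 to 0.0683) were not called, and Atf3 was not called without either siControl+TGFβ array or replicate 2 of siKlf4+TGFβ (0.0577 to 0.0693).

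Other members of the family were not called, with interactions of 0.38 for Fos, 0.44 for Junb, 0.41 for Fosl2, 0.18 for Jund, 0.11 for Fosl1, −0.11 for Batf and −0.12 for Batf3. No kinase gene of the list was called, with 0.20 for Mapk8 (JNK1), −0.07 for Mapk9, −0.08 for Mapk10, 0.18 for Map2k4, 0.13 for Map3k7 and −0.15 for Map3k5. Map3k1, at −0.39, had a 95% interval from −0.68 to −0.09 and an adjusted p of 0.255. Mapk8 had a 95% interval from −0.11 to 0.51, so that a departure from the sum beyond 1.5-fold lay outside it.

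Promoters of these genes were searched for short motifs over the 250 bases before the first-listed start, on both strands, where RefSeq lists a promoter (15613 of the 19937 genes). The motif of Atf4 with a C/EBP partner (TGATGNAA) was present in 2.77% of all promoters and in 6 of 26 (23.1%) of the unfolded protein response and Atf4 list. That list names Atf4 targets, so its share does not bear on the calls. The motif was present in 5.56% of the genes called higher and in 4.58% of those called lower. Of the 6 list members called higher, 2 held it, Chac1 and Slc7a11. The AP-1 motif (TGANTCA) was present in 6.11% of all, in 12 of 90 (13.3%) of the genes called higher and in 7.19% of those called lower. A Klf motif (CCACNCCC) was present in 18.7% of all, in 13.3% of those called higher and in 23.5% of those called lower. The motifs were chosen after the calls were seen, and a match describes the letters and not binding. The first 3 promoters below hold the Atf4 motif, in capitals, and the last holds the AP-1 motif, in capitals, beside a match of the Atf4 motif left in lower case, each as the 200 bases before the start (GRCm38.p6). Chac1 lies at chr2:119351042-119351241 on the plus strand, Slc7a11 at chr3:50443614-50443813 on the minus strand, Atf3 at chr1:191183334-191183533 on the minus strand and Mmp10 at chr9:7502142-7502341 on the plus strand. In Slc7a11 the motif occurs at positions −66 to −59 and, on the other strand, at −47 to −40.
Chac1: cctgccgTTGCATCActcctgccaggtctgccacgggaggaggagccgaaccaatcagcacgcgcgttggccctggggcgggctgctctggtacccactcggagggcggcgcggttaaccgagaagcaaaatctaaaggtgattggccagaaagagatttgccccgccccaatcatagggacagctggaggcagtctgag
Slc7a11: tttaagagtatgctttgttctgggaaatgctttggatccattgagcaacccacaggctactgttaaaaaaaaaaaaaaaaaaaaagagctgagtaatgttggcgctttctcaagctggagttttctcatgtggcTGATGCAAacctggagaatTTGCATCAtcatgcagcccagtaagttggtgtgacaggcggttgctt
Atf3: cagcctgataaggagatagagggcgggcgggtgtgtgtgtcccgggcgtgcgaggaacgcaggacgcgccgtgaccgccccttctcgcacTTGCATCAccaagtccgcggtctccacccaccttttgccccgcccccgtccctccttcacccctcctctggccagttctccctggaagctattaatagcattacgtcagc
Mmp10: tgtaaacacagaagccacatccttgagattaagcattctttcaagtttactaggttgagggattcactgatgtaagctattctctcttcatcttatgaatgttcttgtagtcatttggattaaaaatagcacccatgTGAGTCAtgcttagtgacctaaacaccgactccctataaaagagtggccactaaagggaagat

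Below the sum, the most numerous named group was the cell cycle. Progression through S phase and mitosis requires E2F-driven genes of DNA replication and later genes driven by B-Myb and FoxM1, and both waves fall when cells leave the cycle. Of 31 measured genes of G1/S and DNA replication, 12 were called lower and 0 higher (38.7% against 0.978% of all genes), with a median interaction of −0.50. Of 36 genes of G2 and mitosis, 18 were called lower and 0 higher (50%), with a median of −0.73, and the interaction was below 0 for all 36. The median log2 difference of the G1/S genes from siControl was −0.62 in siKlf4, −0.51 in siControl+TGFβ and −1.59 in the combination. For the G2 and mitosis genes these medians were −0.78, −0.19 and −1.65, and every gene of both lists was lower in the combination than in siControl.

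The number of G2 and mitosis calls fell most without a TGFβ-labelled array, while the interactions stayed negative. Over the 8 leave-out fits they went from −1.21 to −1.01 for Nuf2 and from −1.13 to −0.82 for Ccnb2. For Mki67 they went from −1.08 to −0.77 and for Aurkb from −1.01 to −0.82. The spread within groups was unequal, with estimated array weights of 1.40 to 1.42 for the TGFβ-labelled arrays and 0.71 for the others. Without replicate 1 of siControl+TGFβ, 1 of the G2 and mitosis genes was called, and without its replicate 2 or either array of siKlf4+TGFβ 0 were, although all 36 had an unadjusted p under 0.05 with all arrays. Of the G1/S genes, 2 or 3 were called without any 1 of these arrays. Without replicate 2 of siControl the counts were 3 for G1/S and 6 for G2 and mitosis, and without replicate 1 or 2 of siKlf4 the G1/S counts were 7 and 5.

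Tk1, the thymidine kinase of S phase, had log2 values of 10.03 and 10.07 in siControl, 9.18 and 9.22 in siKlf4, 9.39 and 9.28 in siControl+TGFβ and 7.43 and 7.38 in siKlf4+TGFβ. The combination lay far below each single group, and the interaction was −1.07 (standard error 0.11, adjusted p = 0.00611). Lig1, the ligase that joins Okazaki fragments, had log2 values of 9.86 and 9.88 in siControl, 9.14 and 9.14 in siKlf4, 9.35 and 9.38 in siControl+TGFβ and 7.46 and 7.58 in siKlf4+TGFβ. Its arrays fell in the same order, and the interaction was −1.11 (standard error 0.11, adjusted p = 0.00579). Tk1 and Lig1 remained called whichever array was left out. The primase Prim1 (−1.08, adjusted p = 0.00741) was lost without replicate 2 of siKlf4+TGFβ alone (0.0525). Uhrf1, which carries DNA methylation through replication (−0.95, adjusted p = 0.0194), was lost without replicate 2 of siControl or of siKlf4 or any TGFβ-labelled array (0.0566 to 0.0997). The licensing genes Mcm2, Mcm3, Mcm5 and Mcm10 were called, at −0.58, −0.70, −0.82 and −0.64, while Mcm4, Mcm6 and Mcm7, at −0.43, −0.50 and −0.40, and Pcna, at −0.44, were not. E2f2, at 0.78, was the 1 member clearly on the other side and was not called.

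Among mitotic genes, the kinetochore gene Nuf2 had log2 values of 8.76 and 8.67 in siControl, 8.11 and 7.91 in siKlf4, 8.18 and 8.33 in siControl+TGFβ and 6.39 and 6.50 in siKlf4+TGFβ. The combination was the lowest group by a wide margin, with an interaction of −1.11 (standard error 0.14, adjusted p = 0.0110). Ccnb2, a B-type cyclin, had log2 values of 9.43 and 9.34 in siControl, 8.94 and 8.63 in siKlf4, 9.27 and 9.31 in siControl+TGFβ and 7.69 and 7.76 in siKlf4+TGFβ. In siControl+TGFβ it was just below siControl, and the interaction was −0.97 (standard error 0.15, adjusted p = 0.0198). Mki67, the proliferation antigen, and the kinase Aurkb both had interactions of −0.92 (adjusted p = 0.0293 and 0.0128), and Cdk1 and Foxm1 had −0.86 and −0.91. Nuf2 was lost without replicate 2 of siControl+TGFβ or either siKlf4+TGFβ array (adjusted p from 0.0525 to 0.0648), and Aurkb without any TGFβ-labelled array (0.0646 to 0.0808). Ccnb2 was lost without replicate 2 of siControl or any TGFβ-labelled array (0.0631 to 0.103), and Mki67 in all fits but that without replicate 1 of siControl (0.0512 to 0.129).

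**Figure D3:**
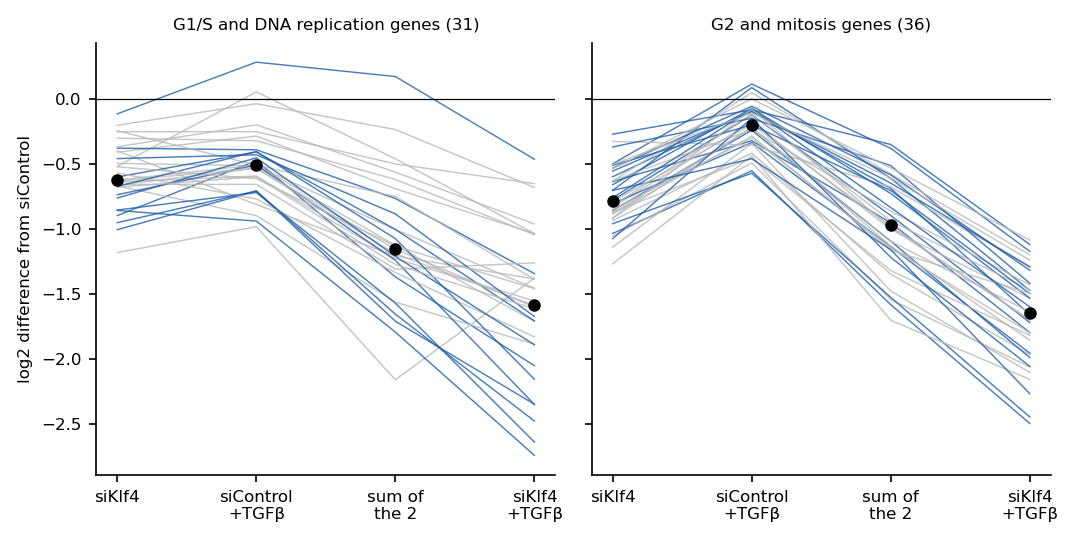
Lines connect, for each gene of the G1/S list (left, 31 genes) and of the G2 and mitosis list (right, 36 genes), the log2 differences from siControl in siKlf4, in siControl+TGFβ, as their sum, and in siKlf4+TGFβ. Blue lines are genes called lower than additive, grey lines genes not called and black dots the medians, which go from −1.16 for the sum to −1.59 for the combination on the left and from −0.96 to −1.65 on the right.

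Inhibitors of cyclin-dependent kinases and arrest targets of p53, 17 genes, had no call in either direction and a median of −0.06. With 1.52% of all genes called, the absence of calls among 17 genes does not set this list apart. The interaction of Cdkn2b (p15), a TGFβ-induced inhibitor, was −0.31, that of Cdkn1b (p27) was 0.24 and that of the growth arrest gene Gadd45b was 0.77. At the scale of antilogged values a departure from the sum means something else, since a gene lowered by both treatments must then stay above 0. Of the 195 lower genes, 180 also lay below the sum of antilogged group means and 15 did not, among them Uhrf1 and Aurkb. Tk1 and Mki67 kept the sign but lay close to that sum, at −1.55 and −7.34 in antilogged units, against −103 for Lig1 and −109 for Prim1. Of the 109 higher genes, 107 kept the sign, and Ltbp1 was 1 of the 2 that did not.

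The promoters of the cell cycle genes were searched for motifs that are known from these waves of expression. The CCAAT box (CCAAT), bound by NF-Y, was present in 35.5% of all promoters, in 23 of 29 (79.3%) of the G2 and mitosis list and in 18 of 26 (69.2%) of the G1/S list. It was not limited to these lists, being present in 80.0% of the cholesterol and fatty acid synthesis list, in 61.5% of the unfolded protein response and Atf4 list, in 45.6% of all genes called higher and in 44.4% of those called lower. The cell cycle homology region (TTTGAA) was present in 13.7% of all promoters, in 9 of 29 (31.0%) of the G2 and mitosis list, in 24.2% of all genes called lower and in 6.67% of those called higher. An E2F motif (TTCCCGC or TTGGCGC) was present in 7.81% of all promoters, in 9 of 26 (34.6%) of the G1/S list, in 6.9% of the G2 and mitosis list, in 7 of 21 (33.3%) of the JNK and AP-1 list, in 15% of the genes called lower and in 7.78% of those called higher. The reverse of the second E2F motif can share 4 bases with a CCAAT box. Of the genes named above, Ccnb2 and Cdk1 stand for the mitotic list and Uhrf1 for G1/S, and capitals mark these motifs in the 200 bases before the start (GRCm38.p6), at chr9:70421555-70421754 on the minus strand, chr10:69352913-69353112 on the minus strand and chr17:56303137-56303336 on the plus strand.
Ccnb2: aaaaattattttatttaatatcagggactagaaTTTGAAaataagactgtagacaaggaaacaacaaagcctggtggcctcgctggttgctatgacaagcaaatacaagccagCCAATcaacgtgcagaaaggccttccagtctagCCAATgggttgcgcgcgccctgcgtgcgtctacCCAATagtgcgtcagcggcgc
Cdk1: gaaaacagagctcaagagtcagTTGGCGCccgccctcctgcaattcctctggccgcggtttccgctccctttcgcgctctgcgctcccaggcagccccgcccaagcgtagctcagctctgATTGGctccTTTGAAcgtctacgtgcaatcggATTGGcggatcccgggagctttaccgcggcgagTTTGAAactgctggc
Uhrf1: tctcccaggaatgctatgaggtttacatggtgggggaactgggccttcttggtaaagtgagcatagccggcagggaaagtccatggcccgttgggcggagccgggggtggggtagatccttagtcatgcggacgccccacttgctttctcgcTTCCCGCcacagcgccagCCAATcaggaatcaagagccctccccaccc

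The single genes furthest below the sum were of another kind. Upk1b, which encodes a tetraspanin of the urothelial plaque, had log2 values of 6.60 and 6.60 in siControl, 4.85 and 5.05 in siKlf4, 8.33 and 8.47 in siControl+TGFβ and 4.60 and 4.89 in siKlf4+TGFβ. It was high in siControl+TGFβ and low in siKlf4, and the combination overlapped siKlf4. The interaction was −2.0 (standard error 0.16, adjusted p = 0.00257), a level 4.0-fold below the sum. Its values in siKlf4 and in the combination lay near or below the array medians, where background may limit how far a fall can show. Upk3b had log2 values of 6.23 and 6.28 in siControl, 6.13 and 6.07 in siKlf4, 7.19 and 7.01 in siControl+TGFβ and 5.38 and 5.41 in siKlf4+TGFβ, with the combination below all other arrays and an interaction of −1.56 (standard error 0.12, adjusted p = 0.00239). The uroplakin genes Upk1a, Upk2 and Upk3a had interactions of 0.12, −0.40 and −0.05 and were not called.

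Slco1a5, an organic anion transporter, had log2 values of 4.62 and 4.73 in siControl, 4.99 and 4.97 in siKlf4, 5.83 and 5.89 in siControl+TGFβ and 4.32 and 4.42 in siKlf4+TGFβ. Both single groups were above siControl and the combination below it, with an interaction of −1.79 (standard error 0.12, adjusted p = 0.00152). Cd36, a fatty acid receptor, had log2 values of 3.57 and 3.34 in siControl, 2.99 and 3.05 in siKlf4, 4.69 and 5.04 in siControl+TGFβ and 2.77 and 2.85 in siKlf4+TGFβ. Only 1 of its 8 values was above the array medians, and the interaction was −1.62 (standard error 0.18, adjusted p = 0.00677). Vat1l differed from siControl by −1.03 and 0.50 in the single groups and by −2.30 in the combination, and its interaction was −1.77 (standard error 0.19, adjusted p = 0.00698).

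Further genes that were above siControl in siControl+TGFβ and not in the combination were the adhesion receptor Vcam1 (−1.33, adjusted p = 0.0356), the interferon-induced GTPase Gbp4 (−1.32, adjusted p = 0.00787), the cystatin gene Cst9 (−1.27, adjusted p = 0.0301), Pdzk1ip1 (−1.26, adjusted p = 0.0145) and the Wnt receptor Fzd4 (−1.24, adjusted p = 0.0114). The actin-binding protein gene Ablim1 was of this kind too, at −1.24 (adjusted p = 0.00517). All of these calls but that of Ablim1 were lost in at least 1 leave-out fit. Gbp4 was lost without replicate 2 of siKlf4+TGFβ (adjusted p = 0.0525), Fzd4 without replicate 2 of siControl+TGFβ or replicate 1 of siKlf4+TGFβ (0.0545 and 0.0616) and Pdzk1ip1 without replicate 2 of siControl+TGFβ or either siKlf4+TGFβ array (0.0646 to 0.0808). Cst9 was lost in all fits but those without replicate 1 of siKlf4 or of siControl+TGFβ (0.0713 to 0.137), and Vcam1 in all but that without replicate 1 of siControl+TGFβ (0.0502 to 0.152).

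Tns1, which links integrins to actin in focal adhesions, stood out by the opposite route. Its log2 values were 6.53 and 6.77 in siControl, 8.72 and 8.89 in siKlf4, 7.15 and 7.40 in siControl+TGFβ and 8.09 and 8.24 in siKlf4+TGFβ. Both single groups were above siControl and the combination was below siKlf4, with an interaction of −1.27 (standard error 0.17, adjusted p = 0.0128) that was lost without replicate 2 of siControl+TGFβ or either siKlf4+TGFβ array (0.0572 to 0.0692). The 6 probe sets of Tns1 gave interactions from −1.35 to −0.65. It was the 1 call among 35 focal adhesion and actin genes (2.86% lower, against 0.978% of all genes). Their median interaction was −0.02, although their median difference from siControl was 0.77 in the combination.

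**Figure D4:**
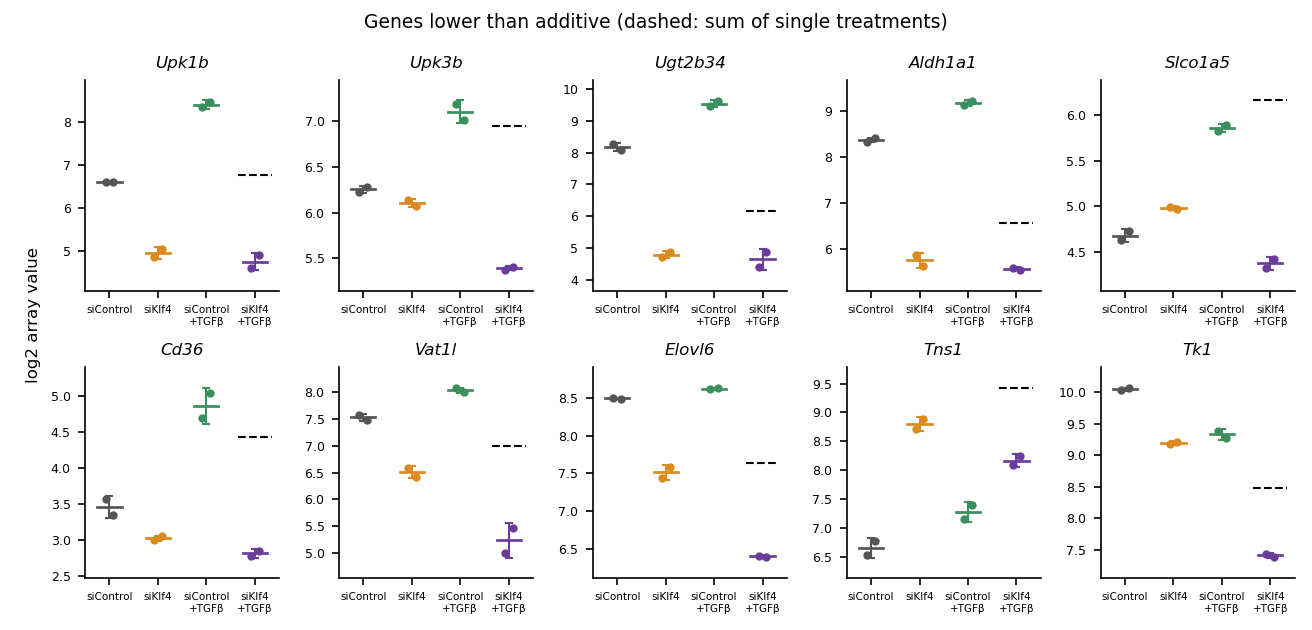
The log2 value of each array is plotted for 10 genes called lower than additive, with bars for means and whiskers for the standard deviation of the 2 arrays of a group. The dashed line over siKlf4+TGFβ is the sum of the single differences added to siControl, and both arrays of the combination lie below it in all 10 genes.

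Enzymes that oxidise or conjugate small molecules lay on both sides of the sum. Of 39 measured cytochrome P450, glucuronosyl- and sulfotransferase and related genes, 4 were called lower (10.3%) and 1 higher (2.56%), with a median of −0.14. Over all genes these shares were 0.978% and 0.547%. Ugt2b34, a glucuronosyltransferase, had log2 values of 8.26 and 8.09 in siControl, 4.71 and 4.86 in siKlf4, 9.47 and 9.62 in siControl+TGFβ and 4.39 and 4.88 in siKlf4+TGFβ. The combination and siKlf4 overlapped below the array medians, where background may limit a fall, and the interaction was −1.52 (standard error 0.21, adjusted p = 0.0145). The retinal dehydrogenase Aldh1a1 followed it, with log2 values of 8.33 and 8.40 in siControl, 5.88 and 5.65 in siKlf4, 9.12 and 9.20 in siControl+TGFβ and 5.61 and 5.56 in siKlf4+TGFβ, and so did its paralog Aldh1a7. Their interactions were −0.98 (standard error 0.13, adjusted p = 0.0128) and −1.10 (standard error 0.13, adjusted p = 0.00787), while Aldh1a2 and Aldh1a3, at 0.28 and −0.14, were not called. Aldh1a7 too lay below the array medians in siKlf4 and in the combination.

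The call of Ugt2b34 was lost without replicate 2 of siControl or either siControl+TGFβ array (adjusted p from 0.0522 to 0.0818), that of Aldh1a1 without any TGFβ-labelled array (0.0632 to 0.0808) and that of Aldh1a7 without replicate 2 of either TGFβ-labelled group (0.0525 and 0.0545). The aldo-keto reductase genes Akr1c18 and Akr1c12 departed in opposite directions. Akr1c18, which inactivates progesterone, had log2 values of 7.31 and 6.59 in siControl, 4.03 and 4.23 in siKlf4, 5.41 and 5.48 in siControl+TGFβ and 4.49 and 4.38 in siKlf4+TGFβ. Its level was above siKlf4 in the combination but below the array medians, and the interaction was 1.82 (standard error 0.28, adjusted p = 0.0188). Akr1c12 differed from siControl by 0.66 in siKlf4, 1.13 in siControl+TGFβ and 0.78 in the combination, with an interaction of −1.01 (standard error 0.20, adjusted p = 0.0458). Akr1c18 was lost without replicate 1 of siKlf4 or any TGFβ-labelled array (0.0561 to 0.0976), and Akr1c12 in all fits but that without replicate 1 of siControl (0.0524 to 0.178). Members of the Ugt2b, Aldh1a and Akr1c families are similar in sequence, which makes values of single members uncertain.

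Of 25 genes of glutathione and Nrf2, Slc7a11 was called higher and Nqo1 (−0.87, adjusted p = 0.0207) and Gpx3 (−0.64, adjusted p = 0.0475) lower. This was 4% higher and 8% lower, against 0.547% and 0.978% of all genes. In siKlf4 and in the combination, Nqo1 lay below the array medians. Nqo1, a quinone reductase, was lost in all fits but that without replicate 1 of siControl (0.0541 to 0.105), and the peroxidase Gpx3 in all 8 (0.0764 to 0.206). Genes of cholesterol and fatty acid synthesis lay mostly below 0, 23 of 25, with a median of −0.29, and 1 was called lower (4%, against 0.978% of all genes). This was Elovl6, an elongase of saturated fatty acids, with log2 values of 8.50 and 8.49 in siControl, 7.45 and 7.58 in siKlf4, 8.61 and 8.63 in siControl+TGFβ and 6.41 and 6.39 in siKlf4+TGFβ. No 2 groups overlapped, siControl+TGFβ lay just above siControl and the combination was lowest, and the interaction was −1.24 (standard error 0.11, adjusted p = 0.00517). The isomerase Idi1 and the sterol sensor Insig1, at −0.64 and −0.52, were not called.

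Among 25 glycolysis and hypoxia genes, 3 were called higher (12% against 0.547% of all genes), with a median of 0.15. They were the mitophagy receptor Bnip3 (1.05, adjusted p = 0.0161), the HIF target Ankrd37 (1.03, adjusted p = 0.0264) and the collagen prolyl hydroxylase P4ha2 (0.80, adjusted p = 0.0168). Bnip3 and Ankrd37 fell in the combination by 2.24 and 1.89, less than the sums of −3.29 and −2.92, whereas P4ha2 rose by 0.50 above siControl. The other probe set of Bnip3 gave an interaction of 0.61. Bnip3 was lost without replicate 2 of siControl or any TGFβ-labelled array (0.0502 to 0.0856), Ankrd37 in all fits but that without replicate 1 of siKlf4+TGFβ (0.0502 to 0.119) and P4ha2 without any TGFβ-labelled array (0.0730 to 0.0978).

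Calls among genes that define EMT were set beside the share of all genes, 1.52% in either direction. None of 20 EMT transcription factors was called (median −0.06), although 4 had an unadjusted p under 0.05. Snai1 had log2 values of 5.86 and 6.15 in siControl, 7.02 and 7.40 in siKlf4, 6.10 and 6.12 in siControl+TGFβ and 7.04 and 7.24 in siKlf4+TGFβ, and its interaction was −0.17 with a 95% interval from −0.63 to 0.29. Zeb1 and Zeb2 had −0.09 (−0.43 to 0.25) and 0.21 (−0.07 to 0.49), and Twist1 had −0.09 (−0.48 to 0.31). None of 37 epithelial junction and keratin genes was called either, with a median of −0.05 and 4 at an unadjusted p under 0.05. At a share of 1.52%, 0 calls in lists of 20 and 37 genes do not set these lists apart from all genes. Cdh1 had an interaction of 0.41 (0.16 to 0.66, adjusted p = 0.127) and the tight junction gene Tjp1 one of −0.31 (−0.59 to −0.03, adjusted p = 0.347).

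Fn1 had an interaction of 0.22 (95% interval −0.04 to 0.48), N-cadherin (Cdh2) of −0.08 (−0.33 to 0.16) and vimentin (Vim) of −0.02 (−0.25 to 0.22). For these 3 genes the interval excluded a departure from the sum of 1.5-fold in either direction. Of 37 mesenchymal and matrix genes, Mmp10 and Col12a1, a fibril-associated collagen (0.78, adjusted p = 0.0183), were called higher and 0 lower, with a median of −0.06. This was 5.41% higher, against 0.547% of all genes. Of 30 genes known to be induced by TGFβ, the latent TGFβ binding protein gene Ltbp1 was called higher (1.01, adjusted p = 0.0108) and Itgb6, the integrin subunit that helps to activate latent TGFβ, lower (−0.93, adjusted p = 0.00788). Either gene is 3.33% of the list, against 0.547% higher and 0.978% lower over all genes. Ltbp1 had log2 values of 7.67 and 7.75 in siControl, 10.06 and 10.24 in siKlf4, 6.45 and 6.38 in siControl+TGFβ and 9.84 and 9.88 in siKlf4+TGFβ. The 2 single differences, of 2.44 and −1.30, were opposed, and the combination stayed close to siKlf4. On the antilogged scale Ltbp1 lay below the sum.

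The calls of Col12a1 (lost without replicate 2 of siControl or of siKlf4 or any TGFβ-labelled array, 0.0530 to 0.101), Ltbp1 (any TGFβ-labelled array, 0.0502 to 0.0689) and Itgb6 (either siControl+TGFβ array or replicate 2 of siKlf4+TGFβ, 0.0518 to 0.0572) did not hold in every leave-out fit. Endothelin-1 (Edn1), a vasoactive peptide, was the 1 gene called higher among 16 that the study discusses by name (6.25%, against 0.547% of all genes). It had log2 values of 7.29 and 7.21 in siControl, 7.98 and 7.99 in siKlf4, 7.01 and 7.06 in siControl+TGFβ and 8.64 and 8.83 in siKlf4+TGFβ, so that the combination was highest and siControl+TGFβ lowest. Its interaction was 0.96 (standard error 0.12, adjusted p = 0.0122), lost without either siControl+TGFβ array or replicate 2 of siKlf4+TGFβ (0.0648 to 0.0683). Vegfa (0.22, 95% interval −0.04 to 0.48), Ctnnb1 (0.13, −0.11 to 0.37) and Pxn (0.17, −0.11 to 0.45) were not called.

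The remaining lists held at most 1 call in each direction. Over all genes, 0.547% were called higher and 0.978% lower. Of 26 apoptosis genes, the BH3-only gene Bmf was called higher (0.78, adjusted p = 0.0365), a share of 3.85%. Of 21 genes of ERK feedback, Ier3 was called higher (0.74, adjusted p = 0.0453) and Spry1 lower (−0.86, adjusted p = 0.0328), or 4.76% each way. Elf3, an epithelial Ets factor, was called higher among 20 epithelial transcription and splicing factors (1.03, adjusted p = 0.0396), a share of 5%. Ifit2 was called lower among 29 interferon response genes (−0.74, adjusted p = 0.0432), a share of 3.45%. Each of these shares rests on 1 gene. Bmf and Ifit2 were called in none of the 8 leave-out fits, with adjusted p up to 0.170 and 0.181, and Spry1, Ier3 and Elf3 in 1, 1 and 2 of them, with adjusted p up to 0.154, 0.189 and 0.170. The 17 genes of the Klf family, 23 of acute-phase and secretory defence, 29 of the respiratory chain and 32 of Notch, Wnt and EGF signalling had no call. As 1.52% of all genes were called in either direction, the absence of calls does not set lists of these sizes apart.

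**Figure D5:**
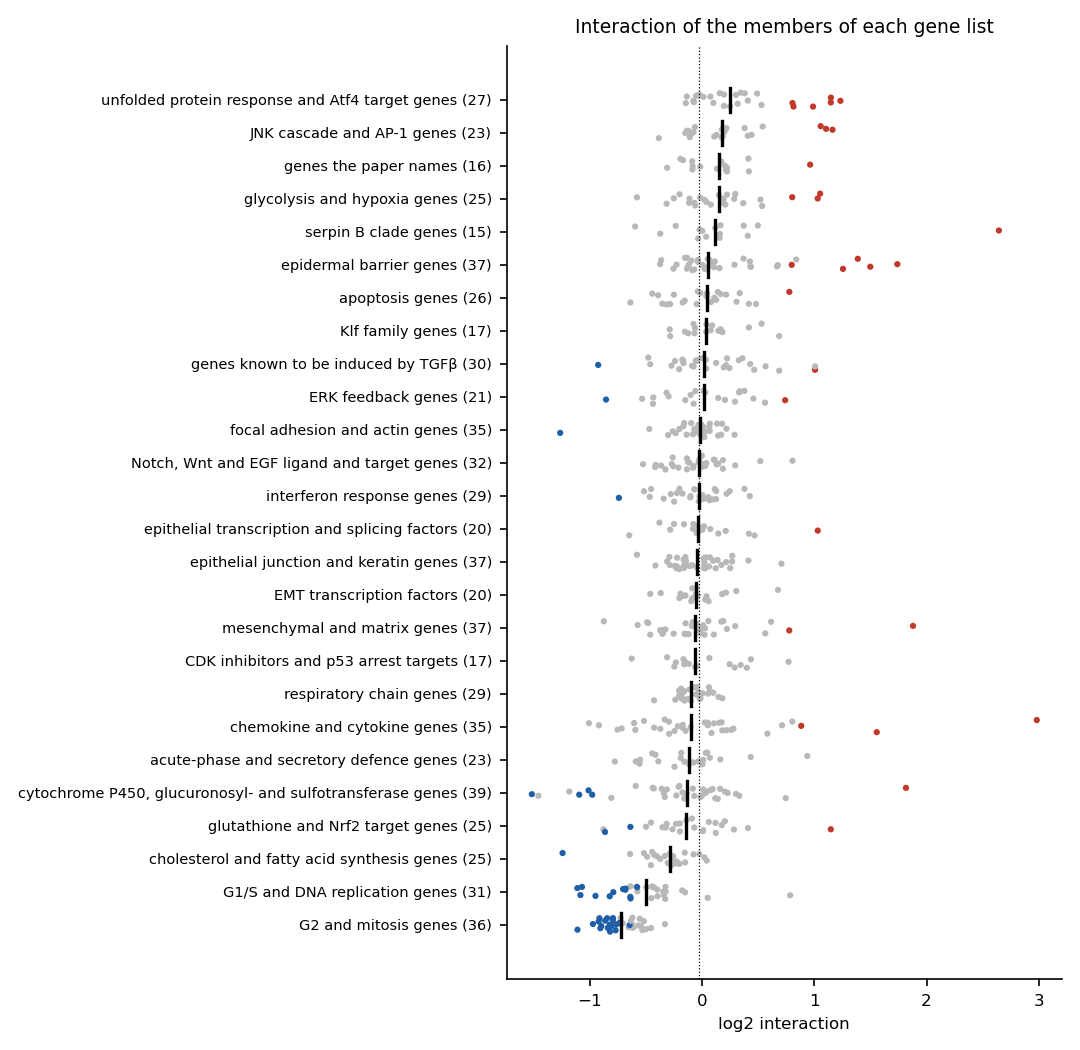
Each point is the log2 interaction of 1 gene, arranged by gene list with the number of measured members in brackets, and the thick bars are medians. Red points are called higher and blue points lower than additive, the dotted line is the median of all genes, and the medians of the lists go from −0.73 for G2 and mitosis to 0.25 for the unfolded protein response and Atf4 targets.

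The 304 calls arose by different routes, read from the group means with a limit of 1.5-fold. The most common, in 95 genes (73 of them lower than additive), was a difference from siControl past the limit in siKlf4 but not in siControl+TGFβ that went further in the same direction in the combination. In 51 genes (20 higher and 31 lower) the combination alone passed the limit, as in Clec2e. In 38 genes (14 higher and 24 lower) a difference in siControl+TGFβ alone was smaller in the combination, as in Spry1, and in 25 (12 and 13) a difference in siKlf4 alone was, as in Slc7a11. The single differences were opposed in 24 genes, went the same way with a smaller joint difference than the sum in 24, and with a larger one in 12, of which 11 were lower than additive. No group passed the limit in 28. The ranking of the routes depended on the limit. At 2-fold, the combination alone passed it in 112 genes and no group did in 98, while the route most common at 1.5-fold held 36. With the labels siKlf4 and siControl+TGFβ exchanged, the routes that name 1 of them change places while the calls stay the same.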

How the data were processed

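The data are 8 Affymetrix arrays of NMuMG RNA, with 2 in each of 4 groups. The values used are on the log2 scale as deposited by the authors, who made them by robust multi-array averaging according to the study's methods (oligo 1.14.0 in the submitters' processing notes). The log base was read from the range of the values, and the background settings are not given in the sources used here. Of 34760 probe sets, 21640 had 1 gene symbol, 1321 had several and 11799 were not listed, and the probe set with the highest mean was taken for each of 19937 genes, of which 954 had more than 1.

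A model with 1 mean per group was fitted with limma 3.58.1 in R 4.3.3 (4 residual degrees of freedom, without trend), with the adjustment of Benjamini and Hochberg across all genes. Replicates correlated at 0.992 to 0.995 over all probe sets, and the number of arrays limits the precision. The script was tested on simulated data. Named were Klf4, the 15 largest called interactions in each direction without clone names, up to 4 called members of each list with counter-examples, genes discussed in the study and close family members, and 1 gene that the rule names is not reported here. The members and lists were chosen with earlier results of these data known. Other moderation, weights, normalization, filters, probe-set rules, thresholds, a replicate block and leaving out each array were tried.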

Additional observations from a re-analysis of the deposited data

Results flagged for a closer look

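The interaction is a test of whether the difference between siKlf4 and siControl was the same with and without TGFβ, and it was called for 109 genes above and 195 genes below the sum. In 17 of these genes, 2 of them with clone names, the difference between the siRNAs was itself called in both backgrounds and had opposite signs. With the labels siKlf4 and siControl+TGFβ exchanged, 33 genes met this, and Atf3, Jun, Slco1a5 and Trib3 did so either way.

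Of the other 15 genes, 10 were lower with siKlf4 alone and higher with siKlf4 under TGFβ. They include the immediate early genes Atf3, Fosb and Jun, whose interactions were 1.16, 1.10 and 1.06, the pseudokinase gene Trib3 at 0.99 and the cytokine gene Il15 at 0.88. Clca3b had log2 values of 9.36 and 9.08 in siControl, 8.67 and 8.71 in siKlf4, 8.97 and 8.80 in siControl+TGFβ and 9.75 and 9.80 in siKlf4+TGFβ, with an interaction of 1.43. Nckap5 had 1.22, the endoplasmic reticulum oxidase gene Ero1b 0.70, the Polycomb gene Cbx8 0.59 and the histone demethylase gene Kdm7a 0.58. The opposite signs occurred in 5 genes, namely Slco1a5 at −1.79, Ppfibp2 at −1.14, Gbp7 at −0.83, Tmem171 at −0.68 and the steroid receptor co-chaperone gene Fkbp5 at −0.64. The call of Nckap5 was lost without replicate 2 of siControl, replicate 1 of siKlf4 or any TGFβ-labelled array (adjusted p from 0.0707 to 0.136). Why these genes turned was not tested.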

How the results depend on the processing

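No called interaction of a named gene changed sign under any alternative run. Those of Snai1, Twist1, Zeb1 and Upk3a, which were not called, did so on leaving out single arrays, with ranges of −0.37 to 0.02, −0.23 to 0.06, −0.21 to 0.03 and −0.23 to 0.14, and that of Upk3a also after quantile normalization (0.01) and cyclic loess (0.02). The counts of genes above and below the sum were 111 and 215 with a replicate block, 118 and 205 with array weights, 107 and 194 with each gene's probe sets averaged, 144 and 272 after quantile normalization, 145 and 270 after cyclic loess and 146 and 250 without the dimmest 30% of genes. With a trend and robust moderation they were 287 and 473, with 19 G1/S and 32 G2 and mitosis genes. The analysis of variance called 0 genes in either direction and 0 in the G1/S, G2 and mitosis, barrier and unfolded protein response lists, and its smallest adjusted p was 0.0656. The fit over all 34760 probe sets, named or not, called 0 and 0 (smallest adjusted p 0.0548, 2993 at an unadjusted p under 0.05, 69 at an adjusted p under 0.10). A threshold of 0.01 left 16 and 21 genes, with 3 G1/S, 0 G2 and mitosis, 1 barrier and 2 unfolded protein response genes, and one of 0.10 gave 203 and 363, with 28 G2 and mitosis genes. Leaving out 1 array, which also removes a residual degree of freedom, gave 13 to 82 genes above and 15 to 151 below the sum, 2 to 9 G1/S, 0 to 17 G2 and mitosis, 1 to 5 barrier and 1 to 6 unfolded protein response genes. The lone array of a group is then assumed to vary like the others. Arrays with the same replicate number were not paired in the main fit. Their deviations from the group means correlated at 0.38 for siControl and siKlf4 and at −0.05 to 0.04 for the other pairs. A replicate component shared by siControl and siKlf4 alone was not modelled, as the replicate block gives all groups the same shift. The replicate block lost 1 call among the 97 named genes, that of Elf3. Genes near background limit what the arrays show, as 8 of the 109 and 27 of the 195 genes lay below the highest array median in siKlf4+TGFβ.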
